A study of Schizosaccharomyces pombe with 4 samples.

Results

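The genes described here encode the nuclear part of the respiratory chain and of the ATP synthase of the fission yeast *Schizosaccharomyces pombe*. They were chosen by a rule on names, set with earlier results of these data known. It took protein-coding genes on chromosomes I, II and III with names of cox, qcr, atp, sdh, cyt or rip followed by a digit. This gave 52 of 5129 protein-coding genes, among 9111 transcription units of all kinds. By their known roles they fall into 4 subunits of complex II, 9 of complex III, 8 of complex IV, 13 of the ATP synthase, and 18 assembly factors or other proteins.

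The study used NET-seq, which purifies elongating RNA polymerase II (RNAPII) together with the RNA it is making and sequences that RNA by strand. The IP group is RNA that came down with a FLAG-tagged Rpb3, a subunit of RNAPII, and the input group is total RNA from the same biological samples taken through the same library protocol. Each group had 2 biological replicates of wild-type cells of 1 strain, h-, with the tag marked by natMX6, taken in mid-log phase from YES, a rich medium, at 32°C. IP and input shared genotype, medium and phase, so that IP against input sets RNA that came down with RNAPII against total RNA. No treatment was tested. Below, a nascent level means the level in IP, which also held RNA of the mitochondrial genome that RNAPII does not transcribe. Levels are averages over a culture, in which fewer cells carrying an RNA cannot be told apart from less RNA per cell.

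As background, the respiratory chain passes electrons from succinate and NADH to oxygen. Succinate dehydrogenase (complex II) reduces ubiquinone, the cytochrome bc1 complex (complex III) passes the electrons to cytochrome c, and cytochrome c oxidase (complex IV) reduces oxygen. Fission yeast has no proton-pumping complex I. The ATP synthase makes ATP from the proton gradient. Complexes III and IV and the ATP synthase also hold subunits encoded in the mitochondrial genome, whereas complex II is wholly nuclear-encoded.

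Levels are given as RPKM, reads per kilobase of the unit scaled to the uniquely mapped reads of the library, recovered from the deposited signal. The implied totals were 7100000 and 7117477 reads in IP, against 9082385 and 9823089 reads in input. Units of tRNA held 5.59% and 5.79% of the reads in IP, against 94.5% and 89.9% in input, and protein-coding genes held 50.3% and 49.2% in IP, against 10.4% and 15.6% in input. Overlapping units are counted more than once in these shares. The depth behind the 52 genes therefore differed between the groups: they held 26043 and 24669 reads in IP, against 1479 and 3238 reads in input. Input replicate 2 was higher than input replicate 1 for 50 of the 52 genes, and over all protein-coding genes with reads the median ratio of input replicate 2 to input replicate 1 was 1.94. The same ratio of the IP replicates was 0.941. How the difference between the input libraries bears on single genes was not tested.

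The respiratory genes as a set lay above the typical gene in IP. Their median IP level was 41.8 RPKM, against a median of 25.4 RPKM over all protein-coding genes, and 37 of the 52 lay above that median. In input their median was 2.66 RPKM, against 1.37 RPKM over all protein-coding genes, and again 37 lay above it. All 34 subunit genes were above the protein-coding median in both IP and input. Of the 18 assembly factors and other proteins, 3 were above it in each.

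**Figure D1:**
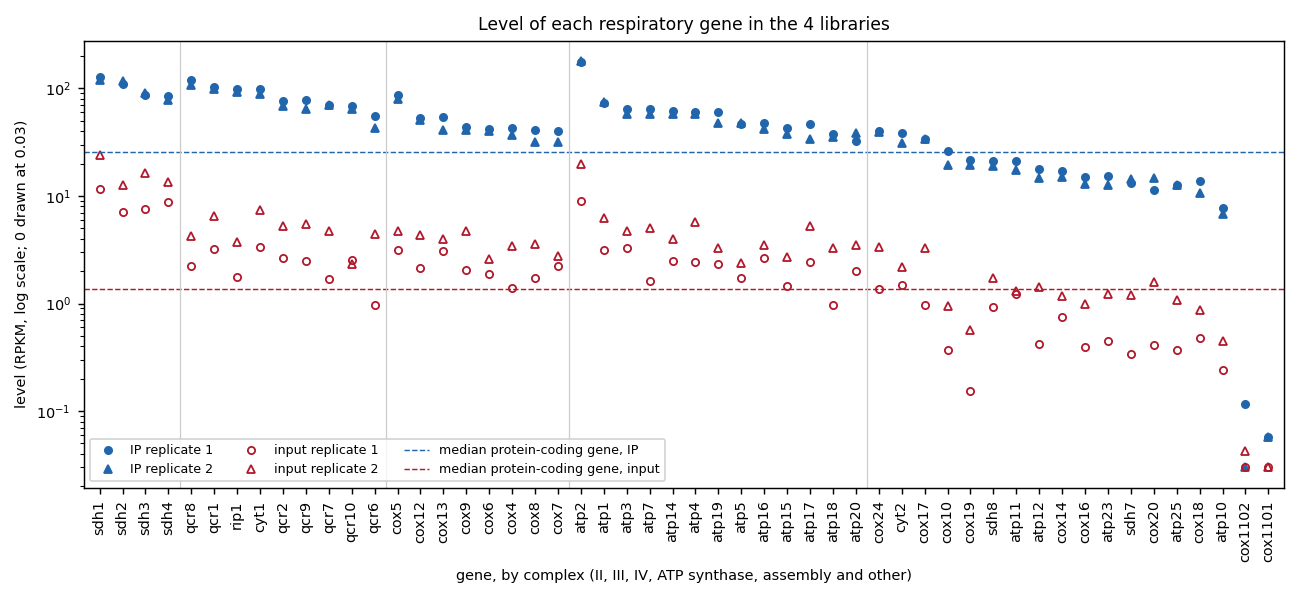
Level of each of the 52 genes in RPKM on a log axis, with IP replicates as filled blue symbols and input replicates as open red symbols, grouped by complex and ordered by mean IP level. Dashed lines mark the median protein-coding gene, 25.4 RPKM in IP and 1.37 RPKM in input. The subunits lie above both lines and most assembly factors below them, with cox1101 and cox1102 at the floor.

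Whether a gene is higher in IP than in input depends on the scale. With the authors' library totals, limma on log2(RPKM + 1) placed 50 of the 52 genes higher in IP and none lower (Benjamini-Hochberg adjusted p under 0.05 over 8912 units). The background of that fit was 92.8% of all units higher and 0.92% lower, so the count is close to the background and is no result about these genes. The median log2 change was 3.64 over the 52 genes and 3.28 over protein-coding genes. The genes were therefore also compared on scales that refer to the other units. In the first, each library was centred on its protein-coding median, where the median protein-coding gene stood at -0.23. In the second, edgeR's quasi-likelihood test with TMM scaling was run on the recovered reads, where the median protein-coding gene stood at 0.07. Below, "relative change" is the log2 of IP over input on one of these scales.

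On the centred scale 10 genes were higher and 9 lower in IP, against 9.11% and 54.6% of all units, or 12.4% and 35.2% of the protein-coding genes in the fit. In edgeR 5 genes were higher (qcr8, rip1, qcr10, cox10 and cox19) and 5 lower (the 4 complex II genes and atp17). The edgeR background was 14.7% of units higher and 14.7% lower, or 17.4% and 19.4% of protein-coding genes. DESeq2 called 3 genes higher and 3 lower, with 7.93% and 12.7% of units called. The median relative change of the 52 genes in edgeR was 0.075. All 4 complex II genes had a negative edgeR change and all 9 complex III genes a positive one. In the other edgeR fits the complex II signs held, whereas qcr9 (-0.032) and qcr6 (-0.090) turned negative on coding reads, and qcr6 (-0.17) and cyt1 (-0.001) without input replicate 1. No test of that difference between complexes was made, since genes of a complex are not replicates.

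**Figure D2:**
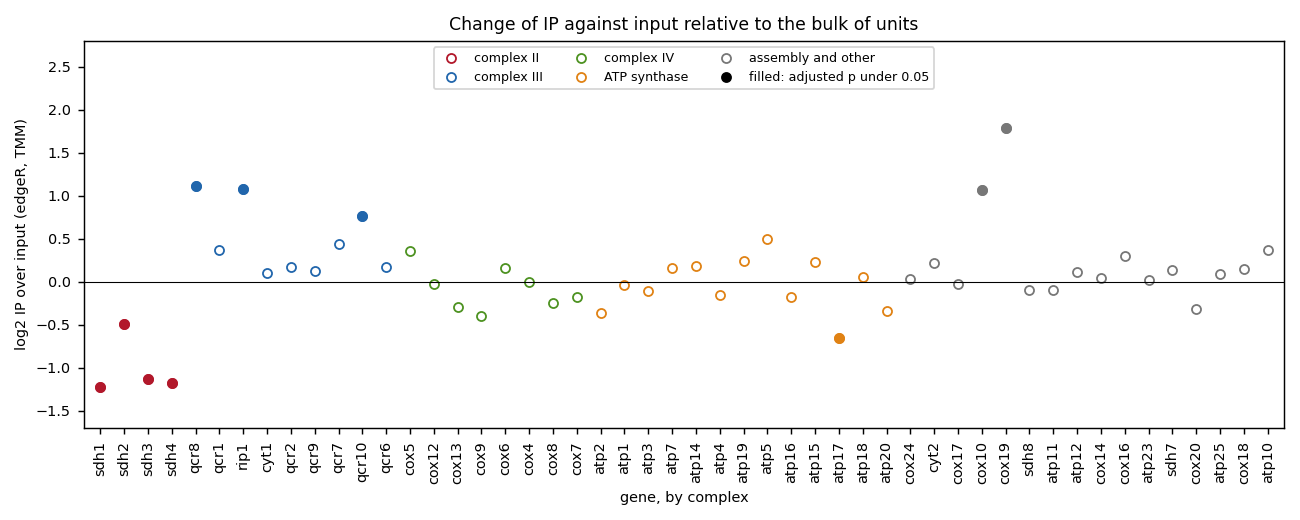
Log2 of IP over input in edgeR (TMM) for the 50 genes above 1 RPKM in IP, which leaves out cox1101 and cox1102, ordered as in the plot of levels. Filled points passed an adjusted p of 0.05, with a background of 14.7% of units in each direction. The 4 complex II genes lie between -1.23 and -0.49, and the 9 complex III genes between 0.10 and 1.11.

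By the median relative change in edgeR, complex II had the highest total RNA relative to nascent RNA (-1.15). Its 4 subunits are the flavoprotein Sdh1 and the iron-sulfur protein Sdh2, which form the catalytic head, and the membrane anchors Sdh3 and Sdh4. sdh1 had 127 and 121 RPKM in IP, against 11.7 and 24.3 RPKM in input, the highest input level of the 52 genes. sdh2 had 109 and 118 RPKM in IP, against 7.02 and 12.6 RPKM in input. sdh1 exceeded 92.6% of protein-coding genes in IP and 94.2% in input, and sdh2 exceeded 91.9% and 91.0%.

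The anchor genes were close behind. sdh3 had 86.4 and 90.7 RPKM in IP, against 7.58 and 16.4 RPKM in input. sdh4 had 84.4 and 77.5 RPKM in IP, against 8.82 and 13.4 RPKM in input, and IP lay above input for all 4 genes, as for most units on this scale. In rank, sdh3 and sdh4 exceeded 89.3% and 88.2% of protein-coding genes in IP, against 92.2% and 91.8% in input.

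Relative to the other units the 4 complex II genes were lower in IP by edgeR. The change was -1.23 for sdh1 (adjusted p = 2.14e-05), -1.13 for sdh3 (4.08e-05), -1.18 for sdh4 (3.66e-05) and -0.49 for sdh2 (0.0224). The first 3 were called in all 9 edgeR fits that were run, which left out each library in turn, changed the units kept, used only coding reads, or paired the replicates. The call of sdh2 was lost without IP replicate 1 (-0.41, adjusted p = 0.254), without IP replicate 2 (-0.64, 0.0515) and without input replicate 2 (-0.52, 0.0638). On the centred scale sdh1, sdh3 and sdh4 were lower by limma at -0.71 ± 0.19, -0.64 ± 0.19 and -0.73 ± 0.18 (SE, n = 2 each), whereas sdh2 stood at -0.05 ± 0.18. This direction flipped with a pseudocount of 10 RPKM, where the 4 genes had centred changes of 0.46 to 1.01. Their input means were 9.81 to 18.0 RPKM.

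The 4 complex II genes lie on all 3 chromosomes. sdh1 is at chromosome I, 3796280 to 3798526 (minus strand), sdh2 at chromosome I, 1895436 to 1896752 (plus), sdh3 at chromosome III, 135724 to 136696 (minus) and sdh4 at chromosome II, 2035906 to 2036579 (plus). As background, the CCAAT-binding Php complex controls respiratory and iron-using genes in fission yeast. The motif CCAAT, or ATTGG on the other strand, was searched from 250 bases before to 50 bases after the RefSeq start of each gene (assembly ASM294v3). All 4 complex II genes carried CCAAT on the coding strand, against 38.5% of the 52 genes and 25.0% of 5113 protein-coding genes. On either strand the shares were 55.8% of the 52 genes and 42.2% of protein-coding genes. A match is a description of the sequence and not a binding site. The windows below are shown because all 4 genes carried the motif on the coding strand. Each has a CCAAT match within 67 bases before the RefSeq start, in capitals:
sdh1 (chrI:3798473-3798501, minus): cttaagagatgcCCAATtaccaaagcttc
sdh2 (chrI:1895352-1895380, plus): atttttctgccgCCAATaaaattgattct
sdh3 (chrIII:136658-136686, minus): ggaaaatatcttCCAATaacatactgcgc
sdh4 (chrII:2036011-2036039, plus): gctgttgaatggCCAATaatgtggacaca

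The match began 27, 67, 26 and 37 bases before the RefSeq start of sdh1, sdh2, sdh3 and sdh4. RefSeq starts differ from those of the deposited annotation. By the gene intervals given above, the windows of sdh1, sdh3 and sdh4 lie inside the gene, and only that of sdh2 lies before it. In complex III 7 of 9 genes had the motif on either strand, in complex IV 4 of 8, in the ATP synthase 7 of 13, and among assembly factors 7 of 18. On the coding strand the counts were, in the same order, 5 of 9, 2 of 8, 5 of 13 and 4 of 18. Among the other genes called in edgeR, rip1, cox10 and cox19 (higher) and atp17 (lower) had no match in the window. qcr10 (higher) carried CCAAT on the coding strand 87 bases before its RefSeq start, and qcr8 (higher) carried ATTGG 31 bases before its RefSeq start:
qcr10 (chrII:2884223-2884251, plus): attttctaatacCCAATaggggagaacgg
qcr8 (chrI:4767013-4767041, plus): gtctgaattattATTGGtctagcagaccc

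Complex III had the highest median relative change of the complexes, 0.37 in edgeR. Over the whole gene, complex III had lower median levels than complex II in both IP and input. Its IP levels ran from 49.2 to 113 RPKM with a median of 72.4, against 2.42 to 5.39 RPKM in input with a median of 3.21. For complex II the medians were 101 RPKM in IP and 11.6 RPKM in input. Over coding segments the IP levels overlapped, at 59.0 to 242 RPKM for complex III and 110 to 141 RPKM for complex II. The input levels over coding segments did not, at 3.09 to 7.86 RPKM for complex III and 11.9 to 20.6 RPKM for complex II. All 9 genes ranked higher among protein-coding genes in IP than in input, with a median rank above 86.6% of genes in IP and 76.8% in input. The median complex II gene exceeded 90.6% in IP and 92.0% in input.

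qcr8, for a small accessory subunit of complex III, had the highest IP level of the complex, at 119 and 108 RPKM in IP, against 2.21 and 4.20 RPKM in input. Its relative change was 1.11 in edgeR (adjusted p = 2.00e-04) and 1.30 ± 0.18 on the centred scale (limma, SE, n = 2 each). rip1 encodes the Rieske iron-sulfur protein, which takes electrons from ubiquinol. It had 98.1 and 92.7 RPKM in IP, against 1.78 and 3.76 RPKM in input, and changed by 1.08 in edgeR (adjusted p = 2.10e-04) and by 1.22 ± 0.18 on the centred scale. Both genes were called in all 9 edgeR fits and in DESeq2 (adjusted p = 0.00244 for qcr8 and 0.00202 for rip1). qcr8 and sdh2 had IP levels near each other, 113 ± 7.5 and 114 ± 6.4 RPKM, with input levels of 3.21 ± 1.41 and 9.81 ± 3.94 RPKM (SD, n = 2 each).

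qcr10, another small subunit, had 69.4 and 64.9 RPKM in IP, against 2.51 and 2.32 RPKM in input, which were 14 reads in each input library. It was the only subunit gene of the chain in which input replicate 2 was not the higher one. Its edgeR change of 0.77 lay at the threshold (adjusted p = 0.0498). The call was lost with the low-count filter (0.68, adjusted p = 0.0861) and on protein-coding genes only (0.76, 0.0532). It was also lost without IP replicate 1 (0.74), without IP replicate 2 (0.73) and without input replicate 2 (0.20). DESeq2 did not make the call (adjusted p = 0.261).

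qcr1 and qcr2 encode the core proteins of the complex, and RefSeq annotates Qcr1 also as the beta subunit of the mitochondrial processing peptidase. qcr1 had 104 and 99.4 RPKM in IP, against 3.20 and 6.49 RPKM in input. It was higher on the centred scale (0.69 ± 0.18, limma adjusted p = 0.00207) and missed the threshold in edgeR (0.37, adjusted p = 0.0787). qcr7 behaved alike, with 0.68 ± 0.20 on the centred scale (adjusted p = 0.00406) and 0.44 in edgeR (adjusted p = 0.0939). With the replicates paired, edgeR called both (adjusted p = 0.0389 for qcr1 and 0.0376 for qcr7). qcr2 and cyt1, the gene of cytochrome c1, passed only on the centred scale, at 0.43 ± 0.18 and 0.46 ± 0.19. These centred calls depended on the pseudocount of 1 RPKM. With 0.1 RPKM, qcr1, qcr7, qcr2 and cyt1 stood at 0.26, 0.41, 0.05 and 0.02, none called. qcr9 and qcr6 were called on neither scale without the pairing, whereas the paired centred fit called both higher (0.41, adjusted p = 0.0428, and 0.43, 0.0316). qcr6, for the acidic hinge protein, had the lowest IP level of the complex, at 55.1 and 43.2 RPKM in IP, against 0.97 and 4.39 RPKM in input. Its 11 and 54 input reads differed most between the input replicates, and without input replicate 2 edgeR called it (1.13, adjusted p = 0.0361), against a change of 0.17 with all libraries.

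One gene of each complex lay side by side. qcr1 (chromosome II, 2032842 to 2034943, minus strand) and sdh4 are transcribed away from each other, with 962 bases between the annotated ends. Across that gap the relative changes had opposite signs. They were 0.69 for qcr1 and -0.73 for sdh4 on the centred scale, and 0.37 (not called) and -1.18 in edgeR. Their levels were 102 ± 3.3 and 81.0 ± 4.9 RPKM in IP, against 4.84 ± 2.33 and 11.1 ± 3.3 RPKM in input (SD, n = 2 each). The only other members within 2000 bases of each other were cox17 and sdh8, in tandem on the minus strand of chromosome II with 322 bases between them, and neither was called on the centred scale or in edgeR.

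**Figure D3:**
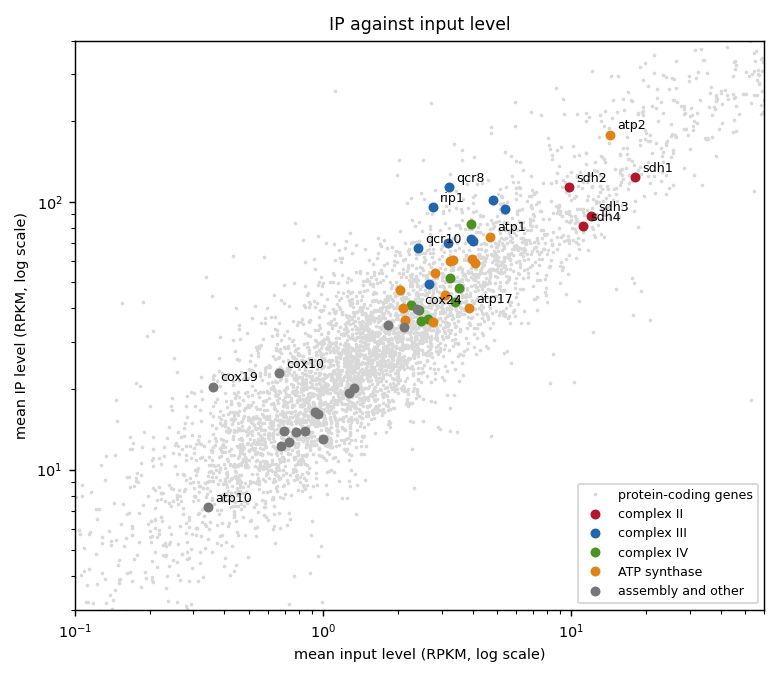
Mean IP level against mean input level of protein-coding genes (grey) and of the respiratory genes (coloured by complex), both in RPKM on log axes. Genes outside the axis ranges, cox1101 and cox1102 among them, are not drawn. At similar IP levels, qcr8 and rip1 lie left of the grey cloud's centre and the complex II genes to the right.

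Complex IV genes had a lower median IP level than those of complexes II and III and stood close to the typical relative change. The nuclear subunits of cytochrome c oxidase surround the catalytic core made in mitochondria. Their IP levels were 35.8 to 82.8 RPKM with a median of 41.8, against 2.25 to 3.94 RPKM in input with a median of 2.94. cox5 was highest, with 86.1 and 79.4 RPKM in IP, against 3.17 and 4.71 RPKM in input. It was the only 1 of the 8 called higher on the centred scale (0.59 ± 0.18, limma adjusted p = 0.00573), and edgeR did not call it (0.36, adjusted p = 0.144). With a pseudocount of 0.1 RPKM its centred change was 0.20, not called. cox7 was lowest, with 39.8 and 31.7 RPKM in IP, against 2.22 and 2.74 RPKM in input. The other 6 (cox4, cox6, cox8, cox9, cox12 and cox13) had IP means of 36.5 to 51.8 RPKM, and no complex IV gene was called by edgeR in either direction, with changes of -0.39 to 0.36.

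Over the whole gene, the ATP synthase spanned the widest range of nascent levels of any complex. atp2, for the catalytic beta subunit, had the highest IP level of all 52 genes, 177 and 180 RPKM, against 8.90 and 19.8 RPKM in input. It was above 94.7% of protein-coding genes in IP and 93.2% in input, and its edgeR change of -0.36 missed the threshold (adjusted p = 0.101). It was called lower in 3 of the 9 edgeR fits, with the low-count filter (-0.45, adjusted p = 0.042), on protein-coding genes only (-0.38, 0.0297) and without input replicate 1 (-0.48, 0.0197). atp1, for the alpha subunit that alternates with beta in the catalytic ring, had 73.0 and 75.4 RPKM in IP, against 3.13 and 6.30 RPKM in input. The remaining 11 genes ran from 35.5 to 61.2 RPKM in IP, with atp20 lowest at 32.5 and 38.5 RPKM in IP, against 2.00 and 3.53 RPKM in input.

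Of the 13 ATP synthase genes edgeR called only atp17, for a subunit of the membrane part, which was lower in IP (-0.66, adjusted p = 0.0373). It had 46.5 and 33.8 RPKM in IP, against 2.44 and 5.30 RPKM in input. The call was lost without IP replicate 2 (-0.51, adjusted p = 0.144), without input replicate 2 (-0.50, 0.386) and with coding reads only (-0.56, 0.241). On the centred scale atp5, for the subunit that confers oligomycin sensitivity, was higher (0.48 ± 0.19, limma adjusted p = 0.0287), though not with a pseudocount of 0.1 RPKM (0.29). With the replicates paired, atp7, for a stalk subunit, was higher as well (0.45, adjusted p = 0.0239). Genes of the soluble catalytic part (atp1, atp2, atp3, atp15 and atp16) had edgeR changes of -0.36 to 0.23, and apart from the atp2 calls above none passed in any of the 9 fits.

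Over the whole gene atp2 had 2.41 times the IP level of atp1, but the annotated intervals differ. The interval of atp1 is 5237 bases long (chromosome I, 5256722 to 5261958, plus strand) and only 1611 of them are coding, while that of atp2 is 1906 bases (chromosome I, 968507 to 970412, minus strand) with 1578 coding. Counted over coding segments only, atp2 had 203 ± 1.3 RPKM in IP, against 15.9 ± 8.3 RPKM in input, and atp1 had 183 ± 4.0 RPKM in IP, against 13.1 ± 6.1 RPKM in input (SD, n = 2 each). Over coding segments the highest gene was qcr8, at 242 ± 17.9 RPKM in IP, against 7.69 ± 3.06 RPKM in input. The median of the 52 genes was 75.8 RPKM over coding segments, against 41.8 RPKM over the whole gene.

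The share of a gene's reads that fell in its coding segments varied from 19.4% to 97.4% in IP among the 50 genes above 1 RPKM in IP, against 29.2% or more in input. It was lower in IP than in input for 30 of the 50, and the medians were 71.1% in IP and 73.4% in input. Over protein-coding genes the medians were 79.0% in IP and 83.0% in input. The rest of the reads lie in untranslated regions and introns. Of the 52 genes, 35 (67.3%) have more than 1 coding segment, against 46.7% of protein-coding genes. cox13 has 6 coding segments and had 69.4% (95% Wilson interval 64.6 to 73.8) and 75.3% (70.1 to 79.9) of its reads in them in IP, against 46.4% (29.5 to 64.2) and 46.2% (31.6 to 61.4) in input. atp14, with 5 segments, had 61.9% (57.5 to 66.1) and 58.7% (54.2 to 63.1) in IP, against 44.0% (26.7 to 62.9) and 31.8% (20.0 to 46.6) in input. In cox13 and atp14 the share was higher in IP, opposite to the 30 genes above. Among other genes with several segments, qcr6 and qcr8 (4 each) had lower shares in IP, 61.8% and 63.0%, against 76.9% and 70.7% in input. atp14 was called higher in IP by edgeR on coding reads (0.97, adjusted p = 0.0119) and not on the whole gene (0.18, 0.485). This was the only 1 of the 9 edgeR fits that called it, and it rests on 11 and 14 coding reads in input. Intervals cover counting error only.

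**Figure D4:**
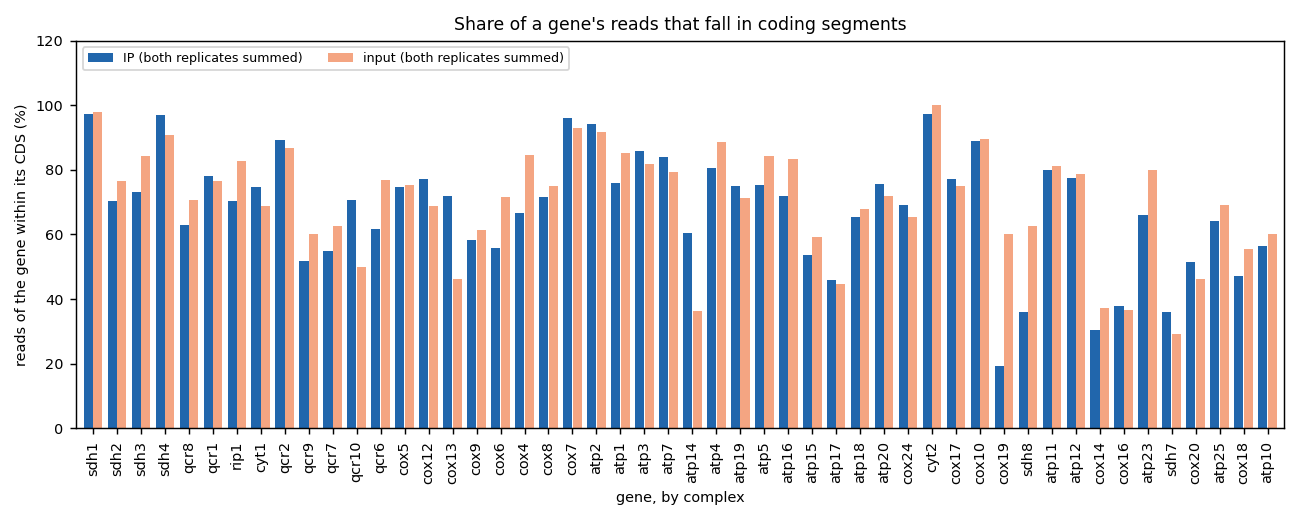
Share of each gene's reads that fall within its coding segments, in percent, for IP (dark bars) and input (light bars), with both replicates summed. The lowest IP share is that of cox19, 19.4%, and input bars of low genes rest on few reads.

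Assembly factors had lower nascent levels than most subunits. The 16 above 1 RPKM in IP, all but cox1101 and cox1102, had IP levels of 7.26 to 39.8 RPKM with a median of 16.2, against 0.343 to 2.38 RPKM in input with a median of 0.885. In IP they exceeded between 10.8% and 70.2% of protein-coding genes. The highest was cox24, with 40.5 and 39.0 RPKM in IP, against 1.37 and 3.38 RPKM in input, and RefSeq annotates its product as a mitochondrial ribosomal protein. cyt2, for the lyase that attaches heme to cytochrome c1, and cox17, for a copper chaperone of complex IV, were the other 2 above the protein-coding median in IP. The lowest of these 16 was atp10, for an ATP synthase assembly factor, at 7.69 and 6.82 RPKM in IP, against 0.241 and 0.445 RPKM in input.

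Among assembly factors edgeR called 2 higher in IP and none lower. cox10, for the enzyme that farnesylates heme on the way to heme A, had 26.4 and 19.5 RPKM in IP, against 0.370 and 0.958 RPKM in input, and changed by 1.07 (adjusted p = 0.0198). Its input values rest on 5 and 14 reads. The call was lost without IP replicate 1 (0.88, adjusted p = 0.0802), without input replicate 1 (0.92, 0.0673) and without input replicate 2 (1.41, 0.0725).

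cox19, for a small protein of the intermembrane space linked to copper delivery in budding yeast, had 21.6 and 19.2 RPKM in IP, against 0.153 and 0.566 RPKM in input. These were 221 and 197 reads in IP, against 2 and 8 reads in input. The edgeR change was 1.78 (adjusted p = 0.00181), the largest of the 50 genes above 1 RPKM in IP. Only 20.4% (95% Wilson interval 15.6 to 26.2) and 18.3% (13.5 to 24.3) of its reads in IP lay in coding segments, against 0 of 2 and 6 of 8 reads in input. On coding reads the change was 0.22 (adjusted p = 0.842), so the call rests on reads outside the annotated coding segments. cox19 was also called higher on the centred scale (0.48 ± 0.20, limma adjusted p = 0.0381), though not on coding reads (-0.19, 0.525).

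On the centred scale cox19 was higher in IP, as given above. On that scale 4 of these 16 assembly factors were lower in IP: atp10 (-0.89 ± 0.24), cox20 (-0.64 ± 0.21), cox18 (-0.53 ± 0.21) and atp25 (-0.50 ± 0.20). In edgeR these 4 genes stood at 0.37, -0.31, 0.14 and 0.10, none called, so that 3 of the 4 differ in sign between the scales. With the replicates paired, the centred fit also called atp23 (-0.46, adjusted p = 0.0234) and sdh7 (-0.40, 0.0495) lower. Their input means were 0.343 to 0.996 RPKM, at or under the pseudocount of 1 RPKM, and on log2(RPKM + 1) values the change of such low genes is understated.

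cox1101 and cox1102 had almost no reads. Both encode the copper-delivery factor Cox11 joined to a mitochondrial ribosome-associated protein. cox1101 (chromosome I, 1267830 to 1270260, minus strand) had 1 and 1 reads in IP, against 0 and 0 in input. cox1102 (chromosome I, 4906912 to 4909314, plus strand) had 2 and 0 reads in IP, against 0 and 1 in input. In every library both were below 3 reads, which would be 0.173 to 0.176 RPKM in IP and 0.126 to 0.137 RPKM in input, so no fold is given.

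The pair is a near-exact copy on the same chromosome. In the RefSeq assembly ASM294v3 both genes are 2337 bases long and differ at 3 adjacent bases, and the identity runs on for 1588 bases upstream and 383 bases downstream. The window with the only differing bases in the gene is shown because it marks the stretch where reads can be told apart. It lies in the coding sequence, with the differing bases in capitals:
cox1101 (chrI:1268493-1268522, minus): tctggtaccaggaaATAttcacgacaatat
cox1102 (chrI:4908622-4908651, plus): tctggtaccaggaaTATttcacgacaatat

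The authors kept reads that mapped to 1 place with up to 2 mismatches. Of the 2288 stretches of 50 bases in each gene, 48 (2.1%) had no second place in the genome within 2 mismatches on either strand. The other 50 genes had at least 99.4% such stretches. The values of cox1101 and cox1102 are therefore no measure of their transcription, and they enter the counts above as 2 members that could not be measured. They account for 2 of the 9 genes called lower on the centred scale.

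Most members stood alone on their strand. Of the 52 genes, 12 (23.1%) overlapped a further unit on their own strand, against 22.5% of protein-coding genes, so part of their reads may count for both units. For 3 of the 12 the other unit had a higher mean IP level than the gene: cox5 shared 66 bases with the noncoding RNA ctp1-antisense-1 (205 RPKM), cox18 shared 67 bases with hnt1 (78.7 RPKM) and cox19 shared 24 bases with yrs1 (101 RPKM). The other 9 were atp1, atp14, atp25, cox16, cox24, qcr2, qcr7, qcr8 and sdh3, each with a unit of 1.99 to 33.0 RPKM. qcr8 shared 64 of 945 bases with rex3-antisense-1 (33.0 RPKM) and sdh3 shared 62 of 973 bases with SPCC330.13-antisense-1 (11.7 RPKM). On coding reads qcr8 and sdh3 kept their edgeR calls, at 1.00 (adjusted p = 0.00133) and -1.27 (1.35e-05).

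On the other strand, a noncoding unit above 1 RPKM in IP overlapped 12 of the 52 genes (23.1%) by at least 50 bases, against 30.9% of protein-coding genes. Their median IP level was 38.8 RPKM, and that of the 40 without such a unit was 43.6 RPKM. The 40 include cox1101 and cox1102, which could not be measured. cox1101-antisense-1 overlaps 1707 bases of cox1101, within the near-identical stretch, and had 0 RPKM in IP. An antisense protein-coding gene overlapped 15 (28.8%), against 35.3%. In 7 genes an antisense unit had an IP level at or above that of the gene. SPNCRNA.1651 overlapped sdh8 (20.2 RPKM in IP, against 1.33 RPKM in input) over 256 bases. It stood at 429 RPKM in IP, but also at 222 RPKM in input. atp10 (7.26 RPKM) was overlapped over 2072 of its 2288 bases by gos1 (12.9 RPKM) and over 419 bases by XUT1326 (8.23 RPKM). The other 5 were atp11 with hcr1, atp25 with dbp10, atp4 with imp1, cox10 with crs103 and sdh7 with pkr1. rip1 lay wholly within the antisense gene ppa2 (31.5 RPKM) and still had 95.4 RPKM in IP on its own strand.

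The same complexes also hold subunits made from the mitochondrial genome, which RNAPII does not transcribe. Their 7 genes (cox1, cox2, cox3, cob1, atp6, atp8 and atp9) had IP levels of 285 to 2116 RPKM, against 106 to 681 RPKM in input, above those of every nuclear member in both. The IP libraries therefore also held RNA that RNAPII did not make. How much such RNA adds to the IP level of a nuclear gene was not tested. atp9 was highest, with 2237 and 1994 RPKM in IP, against 496 and 867 RPKM in input. Relative to the other units all 7 were lower in IP, with changes of -2.93 to -2.20 in edgeR and of -2.35 to -1.63 on the centred scale. None of the 50 nuclear members above 1 RPKM in IP had a change as low.

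Genes of neighbouring steps were compared from hand-written lists. Of the mobile carrier cytochrome c and the NADH dehydrogenases, 3 of 4 listed genes were found. cyc1, for cytochrome c, had 245 and 234 RPKM in IP, against 8.02 and 21.5 RPKM in input, with an edgeR change of 0.04, and nde1 was called higher (0.53, adjusted p = 0.0333), though neither on coding reads (0.0727) nor in DESeq2 (0.254). Of 12 ubiquinone synthesis genes found among 15 listed, edgeR called 7 lower in IP and none higher, with a median of -0.69. On coding reads and in DESeq2 5 were called lower in each. Among the 7, coq9 (-1.08, adjusted p = 9.07e-04), coq7 (-1.04, 0.00751) and coq3 (-1.03, 0.00478) act in the modification of the ubiquinone ring, and coq3 lost its call on coding reads (-0.62, adjusted p = 0.114). Their IP levels were 17.6 to 19.1 RPKM, against 2.21 to 2.42 RPKM in input.

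Of 10 citric acid cycle genes found among 11, edgeR called 2 lower and none higher: aco1, an aconitase gene (-0.73, adjusted p = 0.0031), and idh1, for a subunit of isocitrate dehydrogenase (-0.82, 0.00113). Both were also called lower on coding reads and in DESeq2. Of 19 assembly and ATP synthase genes with other names found among 25, 1 was higher (oxa102, for a membrane insertase, 0.54, adjusted p = 0.0414), 1 was lower (sco1, for a copper chaperone, -0.70, 0.00983) and 17 were not called. On coding reads both calls were lost (adjusted p = 0.0662 for oxa102 and 0.0807 for sco1), and DESeq2 called only sco1 (0.0451). Of the 4 genes of the Php complex, php2 was higher (1.04, adjusted p = 0.00508), also on coding reads and in DESeq2, and the other 3 were not called. These counts stand beside 17.4% higher and 19.4% lower of all protein-coding genes in the same fit.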

How the data were processed

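NET-seq of wild-type *S. pombe* was analysed in 2 IP and 2 input libraries, grouped by their titles. The authors trimmed the 5' adapter, mapped 50-nt reads to unique places with Bowtie, allowing 2 mismatches, on the ASM294v2 build, and scaled each library to its uniquely mapped reads. What they deposited is a normalized signal per feature and strand, given as a count-like value and per nucleotide. How reads over several features were counted is not given in the sources used here. In each library 100.0% of values were whole multiples of 1 read within a tolerance of 1e-06, so whole reads were recovered. RPKM rests on setting IP replicate 1 to 7100000 reads, the smallest total the study states. The totals are an inferred depth, at which 3 reads on 1 kb came to 0.305 to 0.423 RPKM.

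The table has 19343 rows, of which 10204 are coding segments, and 28 repeated entries were left out. All 9111 units entered, and the 8912 with a read in at least 1 library were tested. limma 3.58.1 with a trend was fitted on log2(RPKM + 1), as deposited and centred on the protein-coding median. edgeR 4.0.16 and DESeq2 1.42.0 (R 4.3.3) were run on the recovered reads. All used Benjamini-Hochberg adjustment at 0.05 over the units of each fit. DESeq2 kept its default filter, and cox1101 and cox1102 got no adjusted p from it. Units without an adjusted p count as not called, also in the DESeq2 background. The limma fits on both scales and the edgeR fit were tested on simulated counts. Apart from units changed on purpose, these had the same mean share of reads in IP and input. They lacked the tRNA excess of input, its low depth over genes and the difference between its replicates. The simulation therefore cannot show how the fits perform on these libraries. Coding levels divide reads in coding segments by their length. Promoters, starts and sequences are RefSeq's (ASM294v3), in which all 52 genes were matched and 51 had the same coding segments as the files. Sequences were read with Biopython.

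Same-numbered IP and input come from the same biological sample, which is the pairing. Their deviations correlated at 0.15 over protein-coding genes. The members and lists were chosen with earlier results of these data known. Genes named were, by rule, the highest and lowest of each role group, the 3 largest and 3 smallest changes among genes with at least 10 reads in each library, the 5 largest changes in each direction among called genes, near-identical copies, and those sharing nucleotides or with an antisense unit at or above their level. The other called genes, and the values of atp14, cox13 and the qcr1 and sdh4 pair, were added after their values were seen. Replicates are biological samples of 1 strain. p-values and the limma SE rest on the spread between these 2 samples per group together with that of the other units in the fit. They do not measure the spread of a single gene alone. The main fits did not use the pairing. Alternatives were other pseudocounts (0.1 and 10 RPKM), filters, unit sets, a replicate block and leaving out each library. Coding reads and the other edgeR fits were added after seeing the data.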

Additional observations from a re-analysis of the deposited data

How the results depend on the processing

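The calls on the authors' totals rest on the scale. With 50 genes called higher and none lower, they came to 19 with centring (10 higher and 9 lower), 10 in edgeR and 6 in DESeq2, and to 47 to 50 without each library in turn. The 19 calls on the centred scale came to 9 with a pseudocount of 0.1 RPKM (3 higher and 6 lower) and to 48 with 10 RPKM (35 higher and 13 lower). They came to 10 in edgeR, 6 in DESeq2, and to 6 to 28 without each library: 6 without IP replicate 1 or 2, 21 without input replicate 1 and 28 without input replicate 2. A fit with a lone library in a group assumes that it varies like the other group. In edgeR there were 10 calls on coding reads (6 higher and 4 lower), 10 with its low-count filter, 11 on protein-coding genes only, and 7 (without IP replicate 1 or 2), 10 (without input replicate 1) or 8 (without input replicate 2) with a library left out. With the replicate block, which keeps the pairing, 24 genes were called on the centred scale and 12 in edgeR, 7 higher and 5 lower, and all 10 edgeR calls made without the block were among the 12. On the authors' totals the replicate block left 50.

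The median log2 change of 3.64 was 2.06 with a pseudocount of 10 RPKM, 0.13 with centring, 0.075 in edgeR and 0.014 in DESeq2, and 3.19 to 3.86 without each library. The median IP level was 40.6 to 45.1 RPKM in the single IP libraries and 75.8 RPKM over coding segments.

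Single genes changed sign where the scale moved all units. With centring, edgeR and DESeq2 the log2 change of sdh1 was -0.71, -1.23 and -1.29, that of sdh2 -0.052, -0.49 and -0.56, that of sdh3 -0.64, -1.13 and -1.18 and that of sdh4 -0.73, -1.18 and -1.25. On the same scales cox7 stood at -0.11, -0.18 and -0.27, atp20 at -0.20, -0.34 and -0.40, and atp17 at -0.38, -0.66 and -0.71. atp2 was -0.36 in edgeR and -0.42 in DESeq2, and cox24 was -0.0042 in DESeq2. cox1101 was -3.43 with centring and -1.31 in DESeq2, and cox1102 -3.46, -2.35 and -2.68 with centring, edgeR and DESeq2, and -0.030 without IP replicate 1, all on 3 reads or fewer over the 4 libraries. Depth limits the input values more: protein-coding genes had a median of 369 and 338 reads in IP, against 17 and 35 in input.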
